A study of Gallus gallus with 48 samples.

Results

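The effect of cycloheximide (CHX), an inhibitor of translation, was measured in chicken pituitary cells that had all received corticosterone (CORT), the main glucocorticoid of birds, for 6 h. The comparison held 8 of the 48 samples of the series, chosen by their titles alone. The 4 samples of one group received CORT without CHX, and the 4 samples of the other were kept in CHX for 1.5 h before the same 6 h of CORT. All cells came from the anterior pituitary of embryos at embryonic day 11, dispersed with trypsin and cultured without serum. The labels give no strain, sex or genotype. CORT was used at 1e-09 M and CHX at 10 micrograms per ml, per the labels' protocols. The whole series held 12 groups of 4, in which the same treatments ran for 1.5, 3, 12 and 24 h of CORT, next to cells without CORT (untreated, and CHX alone).

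Both groups carried CORT, so the comparison shows what CHX added to it. By the durations given, treatment of the CHX group lasted 1.5 h longer, which may mean 1.5 h longer in culture. The labels do not say whether CHX was removed when CORT was added, so "after CHX" gives the order alone. The labels call the samples biological replicates without saying that they came from separate cell preparations, so the p-values rest on a spread that may be partly technical.

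CHX blocks the elongation step of protein synthesis on cytosolic ribosomes. A gene that the glucocorticoid receptor switches on directly needs no new protein, so its mRNA is known to rise in CHX as well, whereas a response that passes through a newly made protein is lost. CHX itself is also known to raise short-lived mRNAs, a behaviour called superinduction, in cells of many kinds. In the embryonic pituitary, glucocorticoids are known for bringing forward the first growth hormone cells.

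Each sample, labelled with Cy3, was set on a spotted cDNA array beside a Cy5-labelled pool made from all 48 samples. Values are log2 ratios to that pool, so they compare one gene between samples and give no level between genes. Which channel is the numerator is not stated. The ratio was read with the sample above the pool, which is likely but not settled: read so, FKBP5, which glucocorticoids are known to induce, stood 1.05 higher at 6 h of CORT than in untreated cells and 1.82 higher after CHX than in CHX alone. If the sign were opposite, every direction below would turn. Over all probes the 8 arrays correlated between -0.45 and 0.65, and the dyes were the same on every array per the labels. Each of these arrays gave values for 15013 to 16049 probes. After probes of 1 symbol were averaged, 5644 named genes and 5563 unnamed probes were tested, 11207 features in all. Each difference below is the mean log2 ratio after CHX minus that without CHX. Its SE and adjusted p come from limma, fitted on all 48 arrays and adjusted by the Benjamini-Hochberg method over the 11207 features. A feature is called where the adjusted p is under 0.05.

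CHX changed 440 features at 6 h of CORT (3.93% of those tested), with 322 higher (2.87%) and 118 lower (1.05%). Among named genes, 180 rose and 59 fell. The median rise was 0.68 and the median fall was -0.60, while the median difference over all features was -0.02. Of the named genes, 31 rose and 14 fell at least 2-fold. All 4 same-numbered pairs of arrays moved with the call in 171 of the 175 called higher genes measured in every pair, and in all 59 called lower. The 2 groups of arrays did not overlap in 217 of the 239 called genes, against 10.6% of all features. The counts of pairs and of groups without overlap describe genes called on these same arrays, so they give the calls no separate support. In all, 1601 features had an unadjusted p under 0.05. With replicate number as a block, 967 features were called, 643 higher and 324 lower, all 440 among them. The count varied with the array left out, and each omission also left fewer arrays in a group. It was 179 without CORT replicate 3, 218 without CHX replicate 3 and 286 without CHX replicate 1, and 80 without replicate 3 of every group in the series. In such bulk samples, fewer cells of a type and less RNA per cell cannot be told apart.

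**Figure D1:**
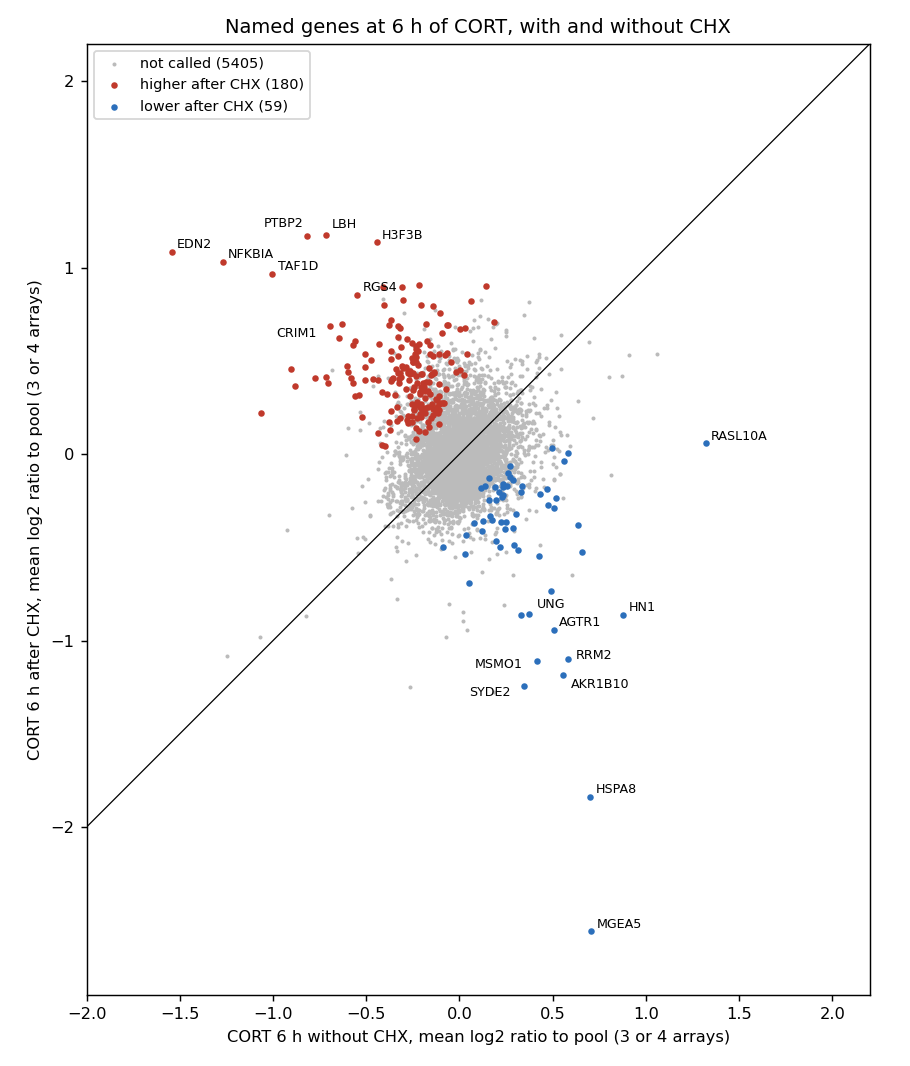
Mean log2 ratio to the pool at 6 h of CORT, without CHX (horizontal axis) and after CHX (vertical axis), for 5644 named genes, 1 point each, with the diagonal of equal values. The 180 called higher genes lie above the diagonal, led by EDN2 and NFKBIA, and the 59 called lower genes lie below it, led by the MGEA5 name and HSPA8. The values under the names MGEA5, AKR1B10 and SYDE2 cannot be assigned to those genes, as the text describes.

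The largest rise of a named gene was that of EDN2, which encodes the precursor of the vasoactive peptide endothelin-2. Its log2 ratios were -1.52, -1.28 and -1.83 on the 3 arrays that measured it without CHX, and 1.80, 1.00, 1.30 and 0.23 after CHX. No array of one group reached the other, and the difference was 2.63 (SE 0.44, adjusted p = 0.000289), or 6.18-fold. NFKBIA encodes the inhibitor that holds NF-kB in the cytoplasm and is itself a glucocorticoid target in mammals. It read -1.35, -1.56, -1.64 and -0.53 without CHX and 0.81, 0.75, 1.62 and 0.94 after CHX. Its difference of 2.30 (SE 0.28, 4.92-fold) had the smallest adjusted p of the comparison, 3.23e-06.

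PTBP2, a splicing regulator that in mammals acts in developing neurons, read -0.92, -0.74, -1.25 and -0.34 without CHX. After CHX it read 1.42, 1.11, 1.61 and 0.54, again with no overlap, a rise of 1.99 (SE 0.30, adjusted p = 5.93e-05). TAF1D, a subunit of the factor that starts transcription by RNA polymerase I, rose by 1.97 (SE 0.34, adjusted p = 0.000284). Its arrays without CHX spread widely, from -1.90 to -0.06, while those after CHX lay between 0.57 and 1.20. LBH, a transcription cofactor named for limb bud and heart, rose by 1.89 (SE 0.36, adjusted p = 0.00108). A single array carried part of that difference, since CORT replicate 3 read -2.34 and the other 3 arrays without CHX between -0.28 and -0.03. Without that array the rise of LBH was 1.35 and stayed called (adjusted p = 0.0201).

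**Figure D2:**
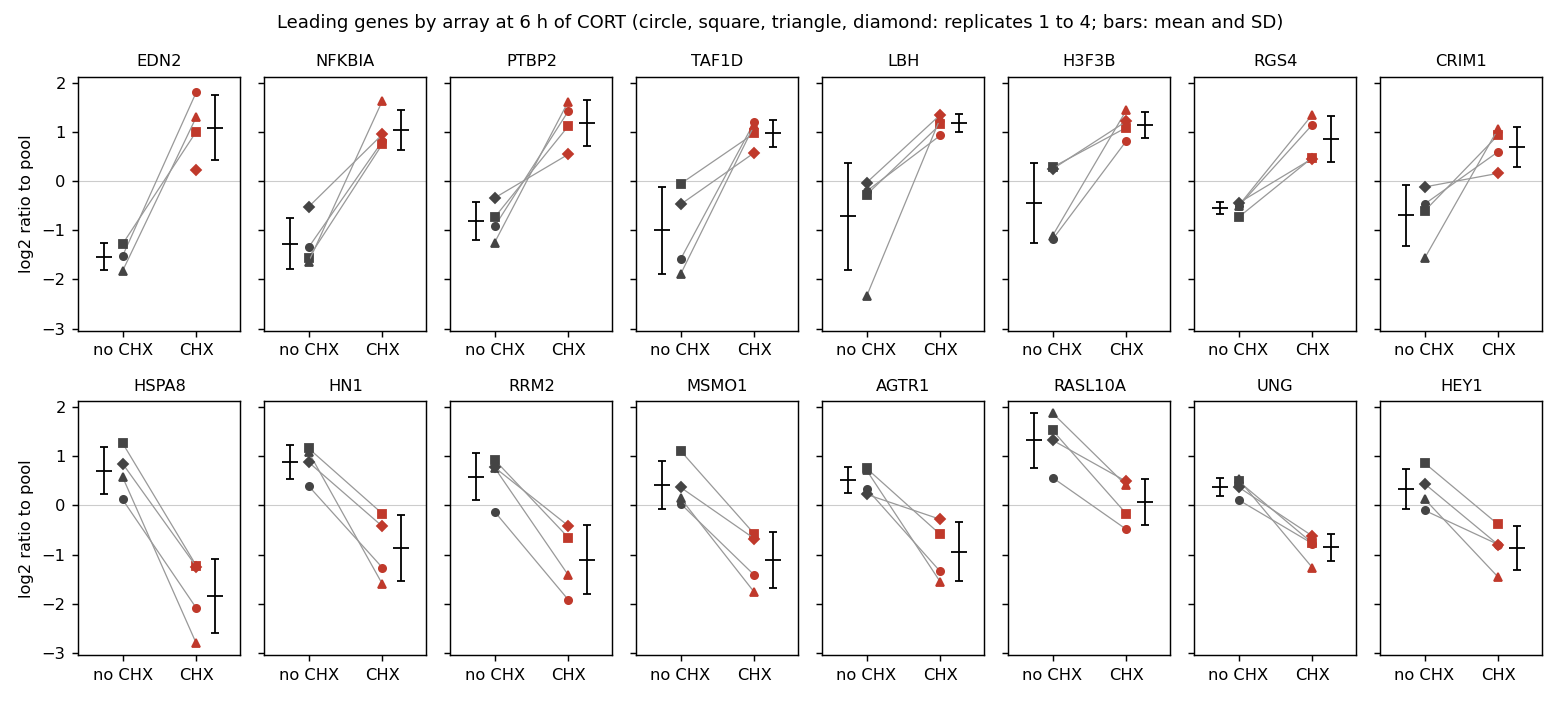
Log2 ratio to the pool on each array for the 8 named genes with the largest rise (upper row) and 8 genes that fell (lower row), without CHX (grey) and after CHX (red). Lines join arrays of the same replicate number, and the bars give mean and SD; every line rises in the upper row and falls in the lower row.

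The remaining 15 of the 20 largest rises lay between 1.13 and 1.58. Signalling genes among them were RGS4 (1.40, adjusted p = 0.000194), which speeds the shut-off of G protein alpha subunits, and DUSP16 (1.33, adjusted p = 0.000109), a phosphatase that inactivates the stress-activated MAP kinases. RGS4 lay between -0.74 and -0.45 on every array without CHX and between 0.46 and 1.35 after CHX. CRIM1, a membrane protein that binds bone morphogenetic proteins, rose by 1.38 (adjusted p = 0.000193), from between -1.57 and -0.12 to between 0.16 and 1.06. Transcription factors were JUN (1.28, adjusted p = 0.0113), a subunit of AP-1, FOXC2 (1.20, adjusted p = 1.23e-05), a forkhead factor of mesoderm, and ATF4 (1.18, adjusted p = 0.000166), which drives the response to amino acid shortage. FOXC2 had the tightest groups of these, 0.70 to 0.88 after CHX against -0.71 to -0.09 without.

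H3F3B, which encodes the replacement histone H3.3, rose by 1.58 (adjusted p = 0.021), with both probes higher (1.79 and 1.43). Genes of protein turnover were USP4, a deubiquitinase (1.27, adjusted p = 0.00264), and ZFAND5, a ubiquitin-binding zinc finger protein (1.24, adjusted p = 0.0396). TTC4, a co-chaperone of HSP90 and HSP70, rose by 1.13 (adjusted p = 4.82e-05). SULT4A1, a sulfotransferase of the brain in mammals, rose by 1.20 (adjusted p = 5.93e-05), and TRPC4AP by 1.31 (adjusted p = 0.0123). Not all of these calls held when 1 of the 8 arrays was left out. Of the 20 largest rises, 14 kept their call without any single array. H3F3B (adjusted p up to 0.129), TRPC4AP (0.0541), JUN (0.0937), ZFAND5 (0.173), NOP56 (0.122) and TSC22D4 (0.0584) did not. The array whose loss raised p most was CORT replicate 3 for H3F3B, JUN and ZFAND5, CORT replicate 1 for TRPC4AP and NOP56, and CHX replicate 4 for TSC22D4.

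Among the largest falls was that of HSPA8, the constitutive cytosolic HSP70 chaperone. HSPA8 read 0.12, 1.26, 0.58 and 0.85 without CHX and -2.08, -1.22, -2.80 and -1.24 after CHX, so the groups lay far apart. The fall was -2.54 (SE 0.51, adjusted p = 0.00174), or 5.82-fold lower, and its 3 probes gave -3.61, -2.22 and -1.87. MGEA5, the enzyme that removes O-linked N-acetylglucosamine from proteins and is listed in RefSeq with the synonym OGA, showed a still larger difference of -3.26 (adjusted p = 0.000929), from a single probe. AKR1B10, an aldo-keto reductase (-1.74, adjusted p = 0.00894), and SYDE2 (-1.59, adjusted p = 0.000728), were also called lower.

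The last 3 values come with a measured limit. The probe named MGEA5 and 1 of the 2 probes each of AKR1B10 and SYDE2 gave nearly the same values as an HSPA8 probe on array after array. Over the 24 arrays with CHX their Pearson correlations with it were 0.974, 0.981 and 0.982 (Spearman 0.916, 0.926 and 0.956), the 3 highest of 14826 probes, and the next was 0.918, a second HSPA8 probe. Over the 23 arrays without CHX on which it was measured they were 0.941, 0.956 and 0.954 (Spearman 0.799, 0.794 and 0.794), where the fourth highest of all probes was 0.952. These are descriptions over arrays that share treatments and the pool. The SDs of the 3 probes over 48 arrays were 1.65 to 1.66, against 1.76 for that HSPA8 probe. The other probe of AKR1B10 gave a difference of -0.15 and that of SYDE2 gave 0.04. The values printed under those 2 names are means over both probes. What the 3 spots carry was not tested, so the differences cannot be assigned to the named genes. All 3 names remain in the counts of named genes called lower.

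HN1, a small microtubule-associated protein also known as JPT1, fell by 1.74 (SE 0.34, adjusted p = 0.00135), from between 0.39 and 1.16 to between -1.60 and -0.17. AGTR1, the type 1 angiotensin II receptor, read 0.34, 0.75, 0.71 and 0.22 without CHX and -1.34, -0.59, -1.55 and -0.28 after CHX. Its fall of -1.45 (SE 0.31, adjusted p = 0.00326) left no overlap between the groups. PTMS, the acidic nuclear protein parathymosin, fell by 1.23 (adjusted p = 0.00599) with both probes lower (-0.93 and -1.52). TAX1BP3, a small PDZ protein, fell by 1.02 (adjusted p = 0.0132), and MTG1, a GTPase of mitochondrial ribosome assembly, fell by 0.75 (adjusted p = 0.0112). Of the 20 largest falls, 8 kept their call without any single array, among them HSPA8, HN1, RRM2, MSMO1, AGTR1 and UNG. Without replicate 3 of every group in the series, HSPA8 (adjusted p = 0.0346) and UNG (0.0139) stayed called. HN1 (adjusted p = 0.106), RRM2 (0.188), MSMO1 (0.0752) and AGTR1 (0.0585) did not. PTMS (adjusted p = 0.0503) and TAX1BP3 (0.077) lost theirs without CHX replicate 3, as did the AKR1B10 name (0.0613), and MTG1 lost its call without replicate 3 of either group (0.0667 and 0.09).

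Genes known as targets of glucocorticoids moved both ways. Of 23 measured genes on a list of them, 5 rose, 1 fell and 17 were not called, with a list median of 0.17 against -0.02 over all features. The share called was 26.09%, beside 3.93% of all features, on a list drawn up with earlier results of these data known. All 33 lists were drawn up in that way, so their called shares give the calls no separate support. FKBP5 encodes a co-chaperone that lowers the hormone affinity of the glucocorticoid receptor. It read -0.11, 0.09, 0.14 and 0.11 with CORT alone and 0.82, 0.62, 0.96 and 0.90 after CHX, a rise of 0.76 (SE 0.20, adjusted p = 0.0214) with no overlap. Both probes were higher (1.12 and 0.41). The call was lost without any one of 5 arrays (adjusted p 0.0511 to 0.0828), namely CORT replicates 1 and 3 and CHX replicates 1, 3 and 4.

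PDK4, the mitochondrial kinase that restrains pyruvate oxidation, rose by 0.74 (SE 0.16, adjusted p = 0.00331). Its arrays read -0.19, -0.09, -0.31 and -0.04 without CHX and 0.60, 0.67, 0.63 and 0.45 after CHX, among the tightest groups seen. BCL6, a transcriptional repressor, rose by 0.77 (adjusted p = 0.0045), a call lost without CHX replicate 3 (adjusted p = 0.0508). TSC22D4, which carries the synonyms GILZ and TSC22D3 in the RefSeq table, rose by 1.15 (adjusted p = 0.0123). Which of these related genes its probes measure is not settled, so it may not stand for GILZ, the member known as a glucocorticoid target. NFKBIA, described above, was the fifth member that rose.

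The single member that fell was RASL10A, a Ras-like GTP-binding protein. It read 0.56, 1.52, 1.87 and 1.32 with CORT alone and -0.49, -0.17, 0.41 and 0.49 after CHX. The lowest array without CHX thus lay only just above the highest after CHX, and the fall was -1.26 (SE 0.28, adjusted p = 0.00615). Without CORT replicate 3 the adjusted p was 0.0528. RASD1, a Ras-related protein first found as induced by dexamethasone, differed by -0.63 and was not called (adjusted p = 0.16). Its arrays overlapped, since CHX replicate 4 read 0.32 while the others after CHX lay between -0.55 and -0.16.

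Responses to CORT itself place these genes side by side, in comparisons that share the 6 h arrays with the one above. By the durations given, the cells without CORT had 6 h less of treatment and may have been harvested 6 h earlier. CORT and time in culture, or time since CHX, therefore cannot be told apart in these comparisons. RASL10A stood 2.40 above untreated cells with CORT alone (adjusted p = 2.08e-06), and 0.93 above CHX alone with both (adjusted p = 0.105). FKBP5 stood 1.05 above untreated cells (adjusted p = 0.00968) and 1.82 above CHX alone (adjusted p = 3.43e-07). For PDK4 the values were 0.17 (adjusted p = 1) and 0.99 (adjusted p = 0.000211), and for BCL6 0.02 (adjusted p = 1) and 0.84 (adjusted p = 0.00414). CORT at 6 h was called in 11 features against untreated cells (0.0982%) and in 129 after CHX against CHX alone (1.15%).

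With CORT alone, other genes also stood above untreated cells, with time in culture again not told apart. These were IMP3 (1.24, adjusted p = 0.00489), PRRG3 (1.16, adjusted p = 0.0237), LRRN3 (0.89, adjusted p = 0.00489) and CCDC80 (1.05, adjusted p = 0.0383). None of them was called for CHX at 6 h. IMP3 read 0.25 to 0.58 with CORT alone and 0.66 to 1.03 after CHX, a difference of 0.44 (95% interval -0.01 to 0.89, adjusted p = 0.369), although no array of one group reached the other. PRRG3, whose product has a vitamin K-dependent (Gla) domain, differed by 0.22 (-0.26 to 0.70), and LRRN3, a leucine-rich neuronal membrane protein, by 0.09 (-0.23 to 0.42). CCDC80, a secreted matrix protein, differed by -0.45 (-0.91 to -0.00, adjusted p = 0.35).

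**Figure D3:**
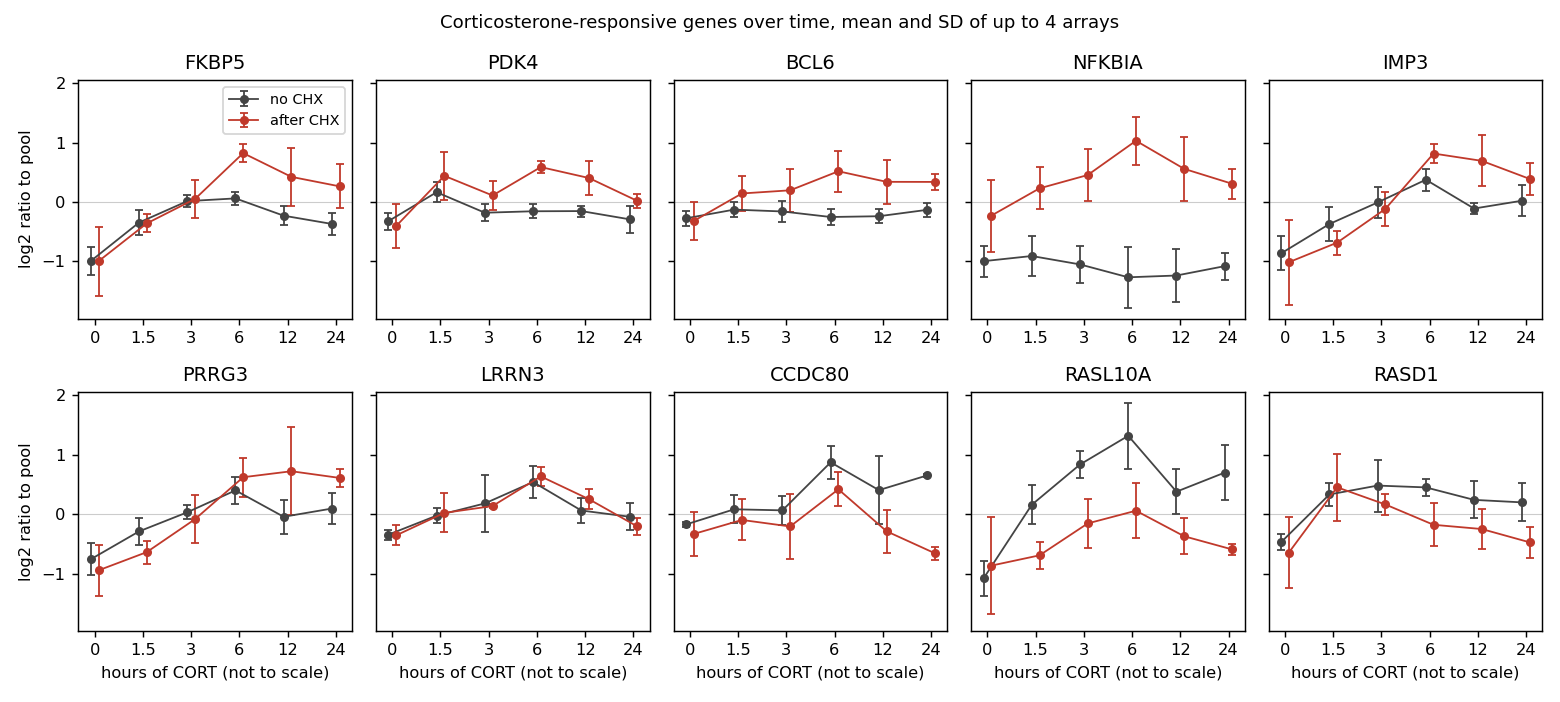
Mean log2 ratio to the pool, with SD of up to 4 arrays, of 10 genes against hours of CORT, without CHX (grey) and after CHX (red). At 6 h FKBP5, PDK4, BCL6 and NFKBIA lie higher after CHX and RASL10A lies lower, whereas the 2 means of IMP3, PRRG3 and LRRN3 differ by at most 0.44 and those of CCDC80 by 0.45.

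Immediate-early and short-lived transcripts are the classical objects of superinduction. Of 22 measured, JUN, MCL1 and ODC rose, HEY1 fell and 18 were not called, with a median of -0.01. The share called was 18.2%, beside 3.93% of all features. JUN read -1.10, -0.53, -1.72 and -0.90 without CHX and -0.06, 0.75, -0.10 and 0.29 after CHX, and its 3 probes gave 0.53, 1.64 and 1.68. MCL1, a short-lived inhibitor of apoptosis, rose by 0.72 (adjusted p = 0.00415), but its 4 probes disagreed, at 1.39, 1.52, -0.03 and -0.29, and the call was lost without CORT replicate 3 (adjusted p = 0.0506). ODC, ornithine decarboxylase, the first enzyme of polyamine synthesis, rose by 0.52 (SE 0.08, adjusted p = 0.000152) from between -0.28 and -0.10 to between 0.25 and 0.42. HEY1, a repressor that Notch signalling induces, fell by 1.19 (adjusted p = 0.0167), a call lost without CORT replicate 2 or CHX replicate 3 (adjusted p = 0.0819 and 0.11).

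Of 14 NF-kB and cytokine genes, NFKBIA and TNFAIP2 rose and 12 were not called (median -0.02). The called share was 14.3%, beside 3.93% of all features. TNFAIP2, a gene that tumour necrosis factor induces, rose by 0.66 (adjusted p = 0.0152), with 1 of its probes at 1.04 and the other at -0.03, and the call was lost without replicate 3 of either group (adjusted p = 0.0538 and 0.158). Of 8 MAP kinase phosphatases and feedback regulators, DUSP16 rose (a called share of 12.5%) and 7 were not called (median 0.11). Its 2 probes gave 1.21 and 1.45. DUSP10, a related phosphatase, differed by 0.67 and was called with the replicate block (adjusted p = 0.00606) but not without it (adjusted p = 0.123). No member of the interferon and antiviral list (8 genes, median -0.12) was called.

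Of 31 ribosome biogenesis genes TAF1D and NOP56 rose and none fell (median 0.12, 21 above 0), a share of 6.45%, near the 3.93% of all features. NOP56, a core protein of the box C/D particles that guide methylation of ribosomal RNA, read -1.47, -0.71, -1.20 and -0.24 without CHX and 0.18, 0.31, 0.49 and 0.84 after CHX, a rise of 1.36 (adjusted p = 0.029). NOC3L, a nucleolar protein of the large subunit that was not on this list, rose by 1.17 (adjusted p = 0.000284), with all 4 arrays after CHX between 0.59 and 0.64. Of 48 splicing factor and hnRNP genes, PTBP2, RBM10, PTBP1 and SF3A1 rose, RBM38 fell and 43 were not called (median 0.11), a share of 10.4%. PTBP1, the form of the tract-binding protein found in most cells, rose by 0.57 (adjusted p = 0.0308), with probes from -0.29 to 1.23. RBM10 rose by 0.71 (adjusted p = 0.0107), and its 4 measured probes were all higher, by 0.40 to 1.02. SF3A1 lay at the edge of the threshold (0.45, adjusted p = 0.0492), and RBM38, an RNA-binding target of p53, fell by 0.36 (adjusted p = 0.024).

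These calls varied in how well they held when 1 array was left out, which also left fewer arrays in that group. PTBP2 kept its call without any one, while SF3A1 lost it without any one of 6 (adjusted p up to 0.239) and PTBP1 without any one of 5 (up to 0.156). RBM38 lost its call without replicate 3 of either group (0.146 and 0.203), and RBM10 without CORT replicate 1 or 3 (0.0603 and 0.0506). UPF2, a factor of nonsense-mediated decay, was the single called member of 18 mRNA decay genes (0.53, adjusted p = 0.00978), with 14 of the 18 above 0 and a median of 0.19. The called share of that list was 5.56%, near the 3.93% of all features. UPF1, the helicase of the same pathway, was called with the replicate block (0.65, adjusted p = 0.016) but not without it (adjusted p = 0.0756). UPF2 lost its call without CORT replicate 3 or CHX replicate 2 (adjusted p = 0.094 and 0.0615).

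None of 41 cytosolic ribosomal protein genes was called (median -0.12, 29 below 0), nor any of 40 initiation and elongation factors (median 0.13, 24 above 0). With the replicate block, RPS15A (-0.49, adjusted p = 0.0175) and RPL7L1, a ribosomal protein-like gene (0.79, adjusted p = 0.0218), were called. Here and in the other lists, block results are given only for genes named by rule. For a list without calls these are mainly its 2 largest differences, and its other members were not looked at. The block called 967 of all features, against 440 without it. Array means of the ribosomal protein genes ran from -0.14 to 0.35 without CHX and from -0.20 to 0.24 after it. Among the factors EIF5, which triggers GTP hydrolysis at the start codon, differed by 0.74 (adjusted p = 0.202, and 0.0216 with the replicate block). EIF2AK3, the kinase PERK that halts initiation under stress of the endoplasmic reticulum, differed by 0.89 (adjusted p = 0.105, and 0.0284 with the block). None of 42 oxidative phosphorylation genes (median -0.01) and none of 32 proteasome subunits (median 0.06) was called, though with the block PSMC5, a proteasome ATPase, was (0.44, adjusted p = 0.032).

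Calls on the heat shock and endoplasmic reticulum lists were all lower. Their called shares were 10.5% and 13.6%, beside 3.93% of all features. Of 19 heat shock genes, HSPA8 and DNAJA1 fell and 17 were not called (median -0.02). DNAJA1, an HSP40 partner of HSPA8, read 0.12, 0.39, 0.82 and 0.38 without CHX and -0.81, -0.36, -1.10 and 0.08 after CHX, a fall of -0.97 (adjusted p = 0.0342). Its call was lost without any one of 6 arrays (adjusted p up to 0.187, without CHX replicate 3). Of 22 genes of endoplasmic reticulum chaperones and the unfolded protein response, RCN1, SDF2L1 and XBP1 fell, none rose, and 16 lay below 0 (median -0.16). RCN1, a calcium-binding protein of the reticulum, fell by 1.18 (adjusted p = 0.0176), from between 0.35 and 0.95 to between -0.93 and 0.02. XBP1, a transcription factor of the unfolded protein response, fell by 0.45 (adjusted p = 0.0315), with its probes at -0.83 and -0.07, and SDF2L1, a resident of the reticulum, fell by 0.48 (adjusted p = 0.0222). HSPA5, the main chaperone of the reticulum, differed by -0.64 (adjusted p = 0.158, and 0.0471 with the replicate block), with its probes at -1.21 and -0.09. RCN1 lost its call without any one of 3 arrays (adjusted p up to 0.0876), SDF2L1 of 4 (up to 0.128) and XBP1 of 5 (up to 0.128).

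Amino acid response and aminoacyl-tRNA synthetase genes showed 2 calls among 26, both higher (median 0.06), a called share of 7.69% beside 3.93% of all features. ATF4 read -1.05, -0.73, -0.99 and -0.32 without CHX and 0.48, 0.35, 0.23 and 0.56 after CHX, but its 2 probes differed, at 2.14 and 0.21. HARS1, histidyl-tRNA synthetase, rose by 0.73 (adjusted p = 0.0285), a call lost without any one of 5 arrays (adjusted p up to 0.139). DARS, aspartyl-tRNA synthetase, differed by 0.87 (adjusted p = 0.194, and 0.0333 with the block).

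Sterol synthesis had the lowest median of the 33 lists. Of 18 mevalonate and sterol synthesis genes 4 fell, none rose and 13 lay below 0 (median -0.22). The called share was 22.2%, beside 3.93% of all features. MSMO1, the sterol C4-methyl oxidase, read 0.04, 1.11, 0.15 and 0.37 without CHX and -1.42, -0.58, -1.76 and -0.67 after CHX, a fall of -1.52 (SE 0.31, adjusted p = 0.00238). HMGCS1, which makes the substrate of the rate-limiting reductase, fell by 0.74 (adjusted p = 0.0414). SQLE, squalene epoxidase, fell by 0.68 (adjusted p = 0.00115), and CYP51A1, lanosterol demethylase, fell by 0.47 (adjusted p = 0.00483) from between -0.05 and 0.11 to between -0.54 and -0.35. FDFT1, squalene synthase, differed by -0.98 but spread from -1.95 to -0.42 after CHX (adjusted p = 0.219, and 0.027 with the block). MSMO1, SQLE and CYP51A1 kept their calls without any single array, whereas HMGCS1 lost its call without any one of 5 (adjusted p 0.0887 to 0.191). MSMO1 lost its call without replicate 3 of every group (adjusted p = 0.0752), and CYP51A1 without replicate 1 of every group (0.0844).

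Of 14 prostaglandin and vasoactive peptide genes, EDN2 and HPGD rose and AGTR1 and PTGR1 fell (median 0.13). The called share was 28.6%, beside 3.93% of all features, on a list drawn up with earlier results of these data known. HPGD, the dehydrogenase that begins the inactivation of prostaglandins, read -0.13, -0.21, -0.52 and 0.02 without CHX and 0.64, 0.75, 1.41 and 0.41 after CHX, a rise of 1.01 (adjusted p = 0.00137). PTGR1, which acts at the next step of that inactivation, fell by 0.43 (adjusted p = 0.0161), a call lost without any one of 4 arrays (adjusted p up to 0.118).

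The 2 calls on the DNA replication list and the 1 call on the mitosis list were lower. Their called shares were 8.7% and 5%, beside 3.93% of all features, so the mitosis share was near that of all features. Of 23 DNA replication genes RRM2 and PCNA fell and none rose (median -0.11). RRM2, the small subunit of ribonucleotide reductase, read -0.13, 0.92, 0.77 and 0.77 without CHX and -1.92, -0.65, -1.42 and -0.42 after CHX, a fall of -1.68 (SE 0.38, adjusted p = 0.00698). PCNA, the sliding clamp of DNA polymerase, fell by 0.78 (adjusted p = 0.00894), with its probes at -1.45 and -0.11. UNG, the glycosylase that removes uracil from DNA, was not on that list. It fell by 1.23 (SE 0.21, adjusted p = 0.000264), from between 0.11 and 0.53 to between -1.26 and -0.62. Of 20 mitosis genes SMC2, a subunit of condensin, fell (-0.65, adjusted p = 0.0236), while 8 lay above 0 (median -0.07). MAD2L1, also on the mitosis list, differed by 0.55 and was not called (adjusted p = 0.586). The mitotic kinase PBK, which was not on the list, fell by 0.75 (adjusted p = 0.0107). TP53INP1 was the single called member of 18 p53 and apoptosis genes (5.56%, near the 3.93% of all features), at -0.79 (adjusted p = 0.00933). CASP9, the initiator caspase of the mitochondrial route, differed by 0.75 and was called with the block only (adjusted p = 0.00368, and 0.092 without it). PCNA lost its call without replicate 3 of either group (adjusted p = 0.0528 and 0.0547), SMC2 without any one of 5 (up to 0.117), PBK of 3 (up to 0.0703) and TP53INP1 without CHX replicate 1 (0.0644).

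Among signalling lists, CRIM1 and SMURF2 rose of 17 TGF-beta and BMP genes (median 0.05), and JAG1 rose and HEY1 fell of 16 Notch and Wnt genes (median -0.07). The called shares were 11.8% and 12.5%, beside 3.93% of all features. JAG1, a Notch ligand, rose by 0.58 (adjusted p = 0.0197), and SMURF2, a ubiquitin ligase of the TGF-beta pathway, by 0.34 (adjusted p = 0.0377). Both genes lost their calls when single arrays were left out (adjusted p up to 0.14 and 0.223). The SMURF2 probes measured on every array of the comparison gave 0.86 and 0.12, and its call was also lost with the median over probes. FZD6, a Wnt receptor, differed by -0.74 (adjusted p = 0.0644, and 0.0303 with the block), but its probes disagreed. One gave -2.345 with values on only 2 of the 4 arrays after CHX, and the other, measured on all of them, gave 0.08. TGFB3, a ligand of the TGF-beta family, differed by 0.86 (adjusted p = 0.131, and 0.00925 with the block). Of 12 steroid receptor and chaperone genes FKBP5 rose and HSPA8 fell (median -0.02, called share 16.7%). None of 9 circadian clock genes was called (median 0.06).

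None of 7 hormone and hormone receptor genes, 11 granins and processing enzymes or 6 pituitary transcription factors was called, with medians of -0.02, -0.12 and 0.02. With 3.93% of all features called, lists this short could hold no call at the background share. Growth hormone (GH) differed by 0.15 (95% interval -0.29 to 0.59), proopiomelanocortin (POMC) by -0.09 (-0.43 to 0.24), and the factor POU1F1 by -0.24 (-0.53 to 0.06). Prolactin (PRL) differed by 0.11 (-0.57 to 0.80) and varied far more between replicates, from -1.22 to 0.25 without CHX and from -1.21 to 0.33 after it. Thyrotropin beta (TSHB) differed by -0.51 (-1.09 to 0.07). SSTR2, a somatostatin receptor, differed by -0.59 (adjusted p = 0.0641, and 0.0126 with the block), with its probes at -1.06 and -0.11. Because values are ratios to a pool of all samples, they cannot show whether these markers of the labelled tissue were abundant.

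Markers of other cell types held 2 calls on 6 lists, none of which had a called share over 7.69%, beside 3.93% of all features. Of 26 fibroblast and matrix markers none was called, though 21 lay below 0 (median -0.10), and the mean of the list ran from 0.04 to 0.16 over the arrays without CHX and from -0.08 to 0.02 after it. COL6A3, a collagen chain, differed by -0.50 (adjusted p = 0.322). Of 13 neuron and glia markers NEFL, the light neurofilament chain, fell (-0.83, adjusted p = 0.0218, lost without any one of 5 arrays, up to 0.163), and TUBB3, a neuronal tubulin, differed by -1.46 (adjusted p = 0.14, and 0.0124 with the block). Of 16 endothelial markers ETS1, a transcription factor that many cells express, rose (0.87, adjusted p = 0.000194). None was called among 12 red blood cell, 10 immune cell and 15 cartilage and muscle markers (medians 0.01, -0.12 and 0.00). Array means of the neuron and glia list ran from -0.11 to 0.02 without CHX and from -0.36 to -0.05 after it, and the part of other cell types in the results was not tested.

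**Figure D4:**
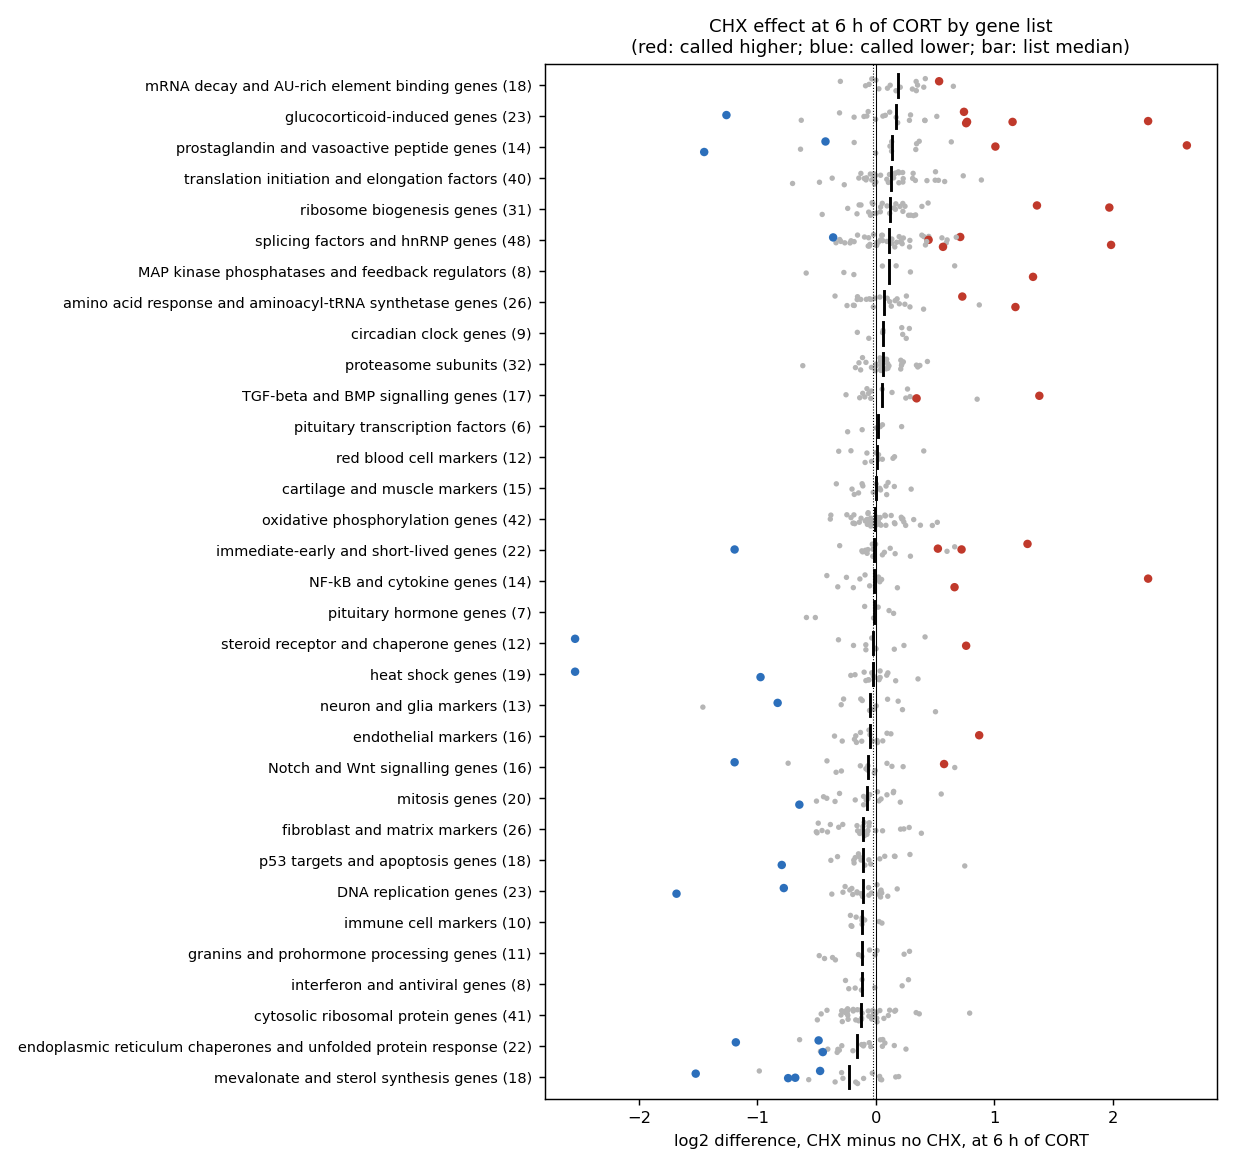
Log2 difference at 6 h of CORT, after CHX minus without CHX, of every measured member of 33 gene lists (number measured in brackets), ordered by list median, with called members in red or blue and a dotted line at the median of all features, -0.02. Called members lie in 20 lists, some of which hold calls in both directions, and 13 lists hold none; the 4 calls on the sterol synthesis list, which has the lowest median, are all lower.

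The same genes were followed at the other durations, whose arrays are not shared with the 6 h comparison. CHX was called in 2 features without CORT (0.0178%), in 44 at 1.5 h (0.393%), 18 at 3 h (0.161%), 157 at 12 h (1.4%) and 555 at 24 h (4.95%). Of the 180 named genes higher at 6 h, 149, 166, 178, 176 and 172 lay above 0 at 0, 1.5, 3, 12 and 24 h. Their medians were 0.12, 0.26, 0.29, 0.43 and 0.33, against 0.68 at 6 h, where they had been chosen. Over all named genes the medians at the other times were -0.002, 0.02, 0.03, 0.02 and 0.04. Called higher at those times were 1, 13, 7, 30 and 49 of the 180, beside 0.0178%, 0.303%, 0.116%, 0.91% and 2.22% of all features. The 30 at 12 h were 16.7% of the 180 and 76.9% of the named genes called higher at 12 h, and the 49 at 24 h were 27.2% and 38.6%.

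Of the 59 genes lower at 6 h, 47, 52, 56, 58 and 56 lay below 0 at the other times, with medians of -0.10, -0.27, -0.39, -0.43 and -0.41 against -0.60 at 6 h. Called lower were 0, 6, 3, 24 and 27 of them, beside 0%, 0.0892%, 0.0446%, 0.491% and 2.73% of all features. The counts at 1.5, 12 and 24 h each include HSPA8 and the names MGEA5, AKR1B10 and SYDE2. As described above, probes under those names followed an HSPA8 probe, so these are not separate genes recurring. The 24 at 12 h were 40.7% of the 59 and 60% of the named genes called lower at 12 h, while the 27 at 24 h were 45.8% and 14.8%. No gene called at 6 h was called in the opposite direction at another time.

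Single genes were called at different times, which does not show that the effect of CHX on them differed between those times. NFKBIA was called at every duration of CORT (1.14, 1.51, 2.30, 1.80 and 1.39 from 1.5 to 24 h) and not without CORT (0.77, adjusted p = 1). JUN had its largest difference without CORT (1.51, adjusted p = 0.0707) and was called at 1.5 h (1.47) and 6 h. PTBP2 (1.76 and 2.05) and CRIM1 (1.34 and 1.58) were also called at 12 and 24 h, as were AGTR1 (-1.37 and -1.22), MSMO1 (-1.20 and -1.12), RRM2 (-1.55 and -1.35) and RCN1 (-1.32 and -1.53). HSPA8 was called at 1.5 h (-2.33), 12 h (-2.06) and 24 h (-1.88) and not at 3 h (-1.94). Other large rises were called at 6 h only, among them TAF1D (0.92 at 24 h, adjusted p = 0.105), SULT4A1 (0.50, adjusted p = 0.0978) and LBH. Of these, LBH lay at -0.35 at 24 h. RASL10A, lower at 6 h, was called at 24 h (-1.30) and not at 12 h (-0.75). FKBP5 differed by -0.01 at 1.5 h and 0.04 at 3 h and by 0.65 and 0.63 at 12 and 24 h, where it was not called. Whether these differences changed between times was tested only against cells without CORT.

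**Figure D5:**
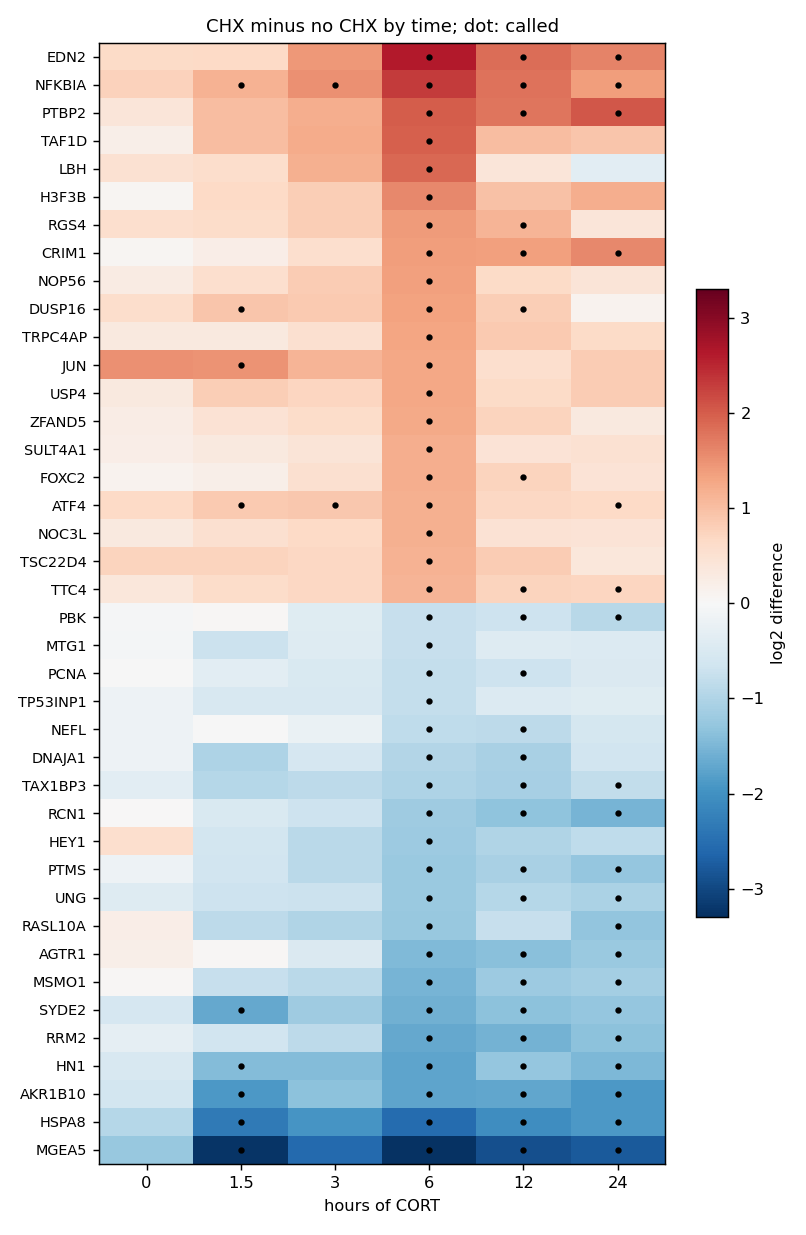
Log2 difference, after CHX minus without CHX, of the 20 named genes with the largest rise and the 20 with the largest fall at 6 h of CORT (rows), at 0 to 24 h of CORT (columns), with a dot where called. NFKBIA carries a dot at every duration of CORT, and HSPA8 at all but 3 h; no gene carries a dot at 0 h. The rows named MGEA5, AKR1B10 and SYDE2 cannot be assigned to those genes.

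That test compared the CHX effect at 6 h of CORT with the CHX effect in cells without CORT. By the durations given, the cells with CHX alone had CHX for 1.5 h only. The difference therefore holds both the 6 h of CORT and the longer time since CHX was added, which cannot be told apart. It called 1 feature (0.00892%), an unnamed probe, and 564 had an unadjusted p under 0.05. No named gene was called (smallest adjusted p 0.103). The 6 smallest unadjusted p-values of named genes belonged to BRPF3 (0.93), a scaffold protein of histone acetyltransferases, and FOXC2 (1.08), followed by HPGD (1.15), BTBD10 (0.85), CRIM1 (1.32) and HEY1 (-1.75). RASL10A gave -1.48 (adjusted p = 0.314), PDK4 0.83 (adjusted p = 0.314) and FKBP5 0.77 (adjusted p = 0.662). A p that misses the threshold does not show that these responses were alike.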

How the data were processed

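RNA was amplified and hybridised with the sample in Cy3 and the pool in Cy5 on every array, per the labels' protocols. The deposited log2 ratios are the authors' processed values. Background correction, normalization and software are not given in the sources used here, and scaling before deposit would remove a change in total RNA. The logarithm's base was read from the values. Whole-number ratios up to 200 turned up 676 times on a log2 scale, against 83 for natural logarithms and 147 for log10. Of 19200 probes, 10601 had 1 gene symbol and 8599 none in the platform table, and 10455 of the named ones were matched to RefSeq (GRCg7b) symbols, 146 keeping an older one. Related transcripts can hybridise to 1 cDNA spot.

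Probes of 1 symbol were averaged, other probes kept singly, and features measured on at least 3 of 4 arrays in each of 12 groups were tested, with 0.866% of their values missing and none imputed. limma 3.58.1 (R 4.3.3, data.table, version 1.17.8) was fitted with a mean per group on 48 arrays (36 residual degrees of freedom where complete), and differences were adjusted by Benjamini-Hochberg over 11207 features. The fit was tested on simulated data. The comparisons were CHX at 6 h, CHX at the other times, CORT at 6 h with and without CHX, and the difference of CHX effects at 6 and 0 h. When the 8 arrays were paired by the labels' replicate numbers, deviations from group means correlated at 0.735, 0.692, 0.314 and 0.579 within number. Between numbers the correlations ran from -0.56 to 0.376. CHX replicate 3 correlated more with CORT replicate 1 (0.376) than with CORT replicate 3 (0.314). CORT replicate 3 in turn correlated most with CHX replicate 3, and next with CHX replicate 1 (0.0922). Pairing is therefore not shown from both sides for replicate 3. Depth does not apply to arrays, and 4 arrays a group limit the precision. Apart from exact zeros, which made up 2.34% of all values and were kept, no 2 arrays held equal values at the same probe.

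Named are the 20 largest called rises and falls, each list's called members and its 2 largest differences, 14 genes set by name (8 taken from earlier results on CORT in these data, of which RASD1 is not called for CORT at 6 h here, and 6 of the pituitary, of which CGA was not tested), and the 6 genes of smallest p in the difference of CHX effects. Not every gene so chosen is printed. The members, gene lists and named genes were chosen with earlier results of these data known. Alternatives changed normalization, filters, probe averaging, the arrays fitted, array weights, shrinkage, the replicate block and the arrays left out.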

Additional observations from a re-analysis of the deposited data

Results flagged for a closer look

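Of 217 groups of 4 arrays of named genes, 9 held a value set apart from the other 3 by Dixon's test at 95%, and chance alone gives about 1 in 20. Among the arrays without CHX, replicate 3 stood apart for LBH (-2.343, the next -0.278), RBM38 (0.534, the next 0.171) and the contractile protein TAGLN (-0.667, the next -0.241). Replicate 1 stood apart for RRM2 (-0.127, the next 0.766) and TP53INP1 (0.368, the next 0.542), and replicate 2 for GATA2 (0.0625, the next -0.219). After CHX, replicate 4 stood apart for SSTR2 (-0.0344, the next -0.374) and TSC22D4 (1.097, the next 0.445), and replicate 2 for the red cell anion exchanger SLC4A1 (-0.655, the next -0.127).

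The effect of CHX at 6 h of CORT differed from that without CORT by 3.149 on the log2 scale for 1 unnamed probe (limma's adjusted p = 0.0407).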

How the results depend on the processing

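The count of 440 features called for CHX at 6 h of CORT moved to 259 with only the 2 groups fitted, 733 with array weights, 967 with the replicate block and 1188 with the main axis of spread within groups as a covariate. It ran from 80 to 430 when arrays were left out: 179 to 430 over single arrays, and 182, 203, 80 and 330 without replicate 1, 2, 3 or 4 of every group. Another normalization, filter, probe rule or shrinkage gave 360 to 518.

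The difference between CHX effects at 6 and 0 h called 1 feature. It called 0 with arrays centred on their medians, with 2 arrays a group sufficing, with only the groups compared or with trended robust shrinkage. It called 2 with each probe singly, 13 with array weights, 5 with the replicate block, 20 with the axis covariate, and 0 to 3 with arrays left out.

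Of 65 called genes named by rule, 21 kept their call under all alternatives and none changed sign. All 65 were called with the replicate block, 47 with only the 2 groups fitted, and 30 without any single array. Without CORT replicate 3, 28 lost their call, and without CHX replicate 3, 23 did. Among uncalled genes, GATA2 (0.22) turned to -0.0067 without CHX replicate 3 and -0.0357 without replicate 3 of every group (range to 0.3413 over single arrays). LRRN3 (0.09) ran from -0.0132 to 0.2005, PRL (0.11) from -0.172 to 0.427 (-0.0847 without CHX replicate 1) and POMC (-0.09) from -0.172 to 0.0319. The cause was not tested. With 4 arrays a group, ratios to a pool and no scanner values, differences near the size of these are not resolved.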

Other observations

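Other genes called at 6 h were grouped after their values were seen, so the groups were given no test. Group members that were measured but not called were not counted, and 3.93% of all features were called. Whether the calls in this section rest on single arrays or probes is not given. Beside ODC, other genes of polyamine synthesis rose: AMD1, which makes the aminopropyl donor, by 0.70 (limma's adjusted p = 0.00928) and AZIN1, which frees ornithine decarboxylase from its antizyme, by 1.12 (adjusted p = 0.0262). Of factors of large ribosomal subunit assembly and export, BRIX1 rose by 0.98 (adjusted p = 0.0149), RPF2 by 0.72 (adjusted p = 0.000513) and NMD3 by 0.36 (adjusted p = 0.0349), while 6.45% of the ribosome biogenesis list was called, near the 3.93% of all features. RSL1D1, a nucleolar protein, fell by 0.53 (adjusted p = 0.00103). The readers of N6-methyladenosine YTHDC1 (0.89, adjusted p = 0.0115) and YTHDF2 (0.48, adjusted p = 0.0209) were both higher, as were CPSF3 (0.78, adjusted p = 0.0382) and CPSF4 (0.99, adjusted p = 0.000264), subunits of the complex that cleaves pre-mRNA for polyadenylation.

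Fat metabolism held calls both ways. ACSL1, which activates fatty acids, rose by 1.13 (adjusted p = 0.00617), and 3 enzymes of beta-oxidation rose: HADHB by 0.50, HSD17B4 by 0.38 and EHHADH by 0.34. Called lower were 4 genes of lipid synthesis: FADS1, a desaturase (-0.61, adjusted p = 0.0307), THRSP, a regulator of lipogenesis (-0.60, adjusted p = 0.00496), ELOVL1, an elongase (-0.41, adjusted p = 0.0107), and SLC25A1, which exports citrate (-0.30, adjusted p = 0.0292). STAT3, a transcription factor of cytokine signalling, rose by 0.91 (adjusted p = 0.036), and the receptor chain IL22RA1 by 0.98 (adjusted p = 0.000655). Of antioxidant enzymes, extracellular SOD3 (-0.53, adjusted p = 0.00331) and PRDX4 of the endoplasmic reticulum (-0.41, adjusted p = 0.0413) were called lower.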
